A study of Mus musculus with 96 samples.

Results

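The question asked of the hippocampal libraries was whether the effect of a CSF1R inhibitor on gene expression differs between mice exposed before birth to maternal immune activation (MIA) and mice exposed to saline. It was answered with an interaction contrast, the inhibitor-minus-control difference in MIA mice minus the same difference in saline mice, averaged over females and males. All 48 hippocampal libraries of the series' 96 entered 1 fit, and 19938 of the 22709 genes in the table, those with a normalized count of at least 10 in at least 5 hippocampal libraries, were tested. The other 48 libraries are from prefrontal cortex of the same design and serve here as a comparison.

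The 8 hippocampal groups cross prenatal treatment (MIA or saline), inhibitor (PLX5622, written PLX, or control) and sex. Each holds 6 libraries, except MIA control females with 7 and MIA control males with 5, so that each of the 4 arms of prenatal treatment by inhibitor holds 12. The series' text names injections of PLX5622, given to deplete microglia and let them repopulate. The agent of immune activation, the control for the inhibitor, doses, the interval from inhibitor to tissue collection, strain, age and litter are not given in the labels. Libraries of a group were therefore taken as independent, and p-values for a prenatal effect or its interaction may be too small if littermates are among them.

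Microglia, the resident macrophages of the brain, need signalling through the receptor CSF1R, which binds the ligands CSF1 and IL-34. Blocking the receptor kills most microglia, and after withdrawal the surviving cells repopulate the tissue. Immune activation of the mother is a widely used exposure in rodent models of neurodevelopmental disorders, and microglia are among the offspring's cells studied as carriers of its effects. In bulk tissue a lower level of a microglial transcript can come from fewer cells or from less RNA per cell, and these cannot be told apart.

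Markers of hippocampal neurons were present: the dentate granule, CA1 and CA2/CA3 lists had 12, 10 and 12 tested genes. The most abundant member of each, Calb1, Mpped1 and Cpne4, had mean normalized counts of 3843, 5418 and 3423. No cortical level was set beside these, so they do not identify the tissue. Recovered reads ran from 22.2 M to 26.7 M per library. No 2 columns were identical, and the most alike pair of libraries correlated at 0.990. A set of 14 libraries stood apart from the other 34 in the share of all values in 155 ribosomal protein and oxidative phosphorylation genes, at 1.33% ± 0.0568 (SD, n = 14) against 0.998% ± 0.0511 (SD, n = 34), with no overlap. They were spread unevenly, with 7 of 12 in saline control, 5 of 12 in MIA control and 1 of 12 in each PLX arm, so inhibitor effects are given below also without them, or with a covariate marking them in the model. Their part in the results was not tested beyond these 2 fits. The prefrontal libraries with the same 14 labels stood apart as well.

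No gene was called for the interaction. At a Benjamini-Hochberg adjusted p under 0.05 in limma, 0 of 19938 genes passed (0%), and the smallest adjusted p was 0.706. An unadjusted p under 0.05 was reached by 407 genes (2.04%), 248 higher and 159 lower, where a share of 5% would lie there if p-values were spread evenly. Higher means that the inhibitor-minus-control difference was more positive in MIA mice than in saline mice. Females alone gave 0 called genes (0%) and 570 at an unadjusted p under 0.05 (2.86%; 1.75% higher and 1.11% lower). Males alone gave 0 (0%) and 425 (2.13%; 1.2% higher and 0.928% lower). Under the alternatives tried, edgeR's quasi-likelihood test on recovered reads called 0 genes with 398 at an unadjusted p under 0.05, and DESeq2 called 0 with 403.

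The fit bounded the size of most interactions. The median standard error over genes was 0.12 on the log2 scale (quartiles 0.08 and 0.22), and the 95% interval lay within a 1.5-fold difference in either direction for 14960 genes (75%) and within 1 log2 unit of 0 for 18421 (92.4%). An interaction beyond 1 log2 unit in size was estimated for 26 genes. The median over all genes was 0.0034, and 51.5% of genes were above 0. A missed threshold does not show that the inhibitor acted alike in the 2 prenatal groups. These intervals state how large a difference could have been present, for 1 gene at a time and with libraries taken as independent. They may be too narrow if littermates are among the libraries.

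The number of genes called for the inhibitor effect itself differed widely between the prenatal groups, while the difference of the effects was called for none of them. In saline mice 3902 genes passed (19.6%), 1959 higher and 1943 lower with PLX. In MIA mice 250 passed (1.25%), 177 higher and 73 lower. These comparisons share no library. Of the 3902 genes called in saline, 3852 had the same sign in MIA, and of the 250 called in MIA, 247 had the same sign in saline. Both passed for 138 genes, which is 3.54% of the saline calls and 55.2% of the MIA calls. The 4014 genes called in either group held 124 (3.09%) at an unadjusted interaction p under 0.05, and the median size of their interaction was 0.07, as over all genes (0.07). The median size of the effect of the saline calls was 0.25 in saline, on which they were chosen, and 0.18 in MIA.

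Both counts moved with the 14 libraries that stand apart. With the covariate, 8 genes passed in saline (0.0401%) and 15 in MIA (0.0752%), and without these libraries 0 passed in saline (limma, 34 libraries) and 3 in MIA. The omission took 7 of 12 saline controls and 5 of 12 MIA controls, so that fit also had fewer libraries to compare. The part of the smaller arms in these counts was not tested. Leaving out single libraries moved the saline count between 653, without female saline control 4, and 5753, without male saline PLX 5. It moved the MIA count between 14, without male MIA control 4, and 3534, without female MIA PLX 6. The interaction count was 0 in each of the 48 fits with a library left out.

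**Figure D1:**
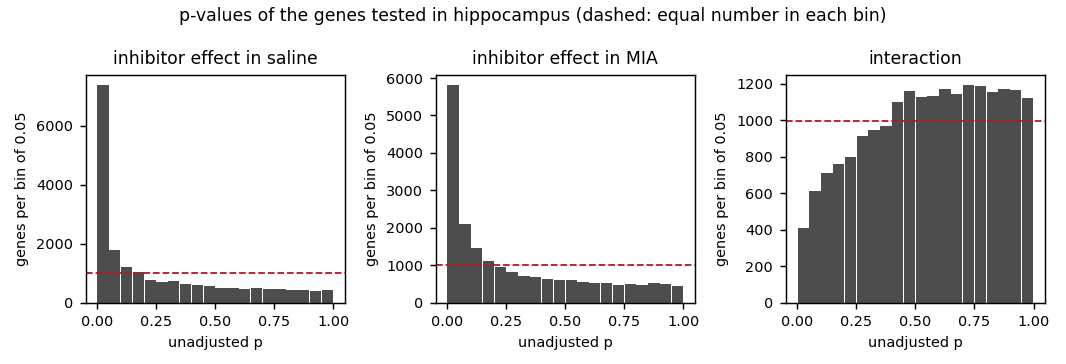
Number of tested genes (vertical axis) by unadjusted limma p in bins of 0.05 (horizontal axis) for the inhibitor effect in saline, the inhibitor effect in MIA and the interaction, with a dashed line at an equal number per bin. The lowest bin holds 7377 genes in saline (37%), 5804 in MIA (29.1%) and 407 for the interaction (2.04%), and in the interaction panel it is the smallest of the 20 bins.

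A small set of genes changed with the inhibitor in both prenatal groups and kept the call when the covariate for the 14 libraries was in the fit. These were Fcrls, Cd163, Myo18b and Upk1b, lower with PLX, and Hcar2 and Ly9, higher with PLX. They make up 6 of the 8 saline calls and 6 of the 15 MIA calls of that fit. With the 14 libraries left out, none of these genes was called in saline, where no gene passed. Their interactions ran from -0.06 for Myo18b to 0.29 for Ly9, and none was called (adjusted p = 1.0 for each in limma). The genes were chosen for being called in both groups, so their shared direction is a description. Hcar2 reached a count of 10 in PLX libraries alone, so it entered the test through the arms where it is high. Ly9 reached that count in 23 PLX and 2 control libraries, so the same holds for Ly9.

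Promoters were looked up for the panel of 19 microglial, macrophage and inhibitor-responsive genes given whatever their result, and 10 had an entry in the RefSeq table. Shown are the 250 bases before the start of P2ry12, Fcrls and Cd163, which the inhibitor lowered in both prenatal groups (GRCm38.p6, an older build than that of the alignment; 5′ to 3′ on the strand of the gene). Capitals mark AGGAAG or its reverse complement CTTCCT, a short core bound by ETS-family factors such as PU.1, a factor that defines macrophages.
P2ry12, chr3:59262986-59263235, minus strand: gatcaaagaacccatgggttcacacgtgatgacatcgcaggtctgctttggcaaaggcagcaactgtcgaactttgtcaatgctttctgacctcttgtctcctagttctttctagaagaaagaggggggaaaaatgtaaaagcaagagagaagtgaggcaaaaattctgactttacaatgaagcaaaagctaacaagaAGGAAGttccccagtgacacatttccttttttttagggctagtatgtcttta
Fcrls, chr3:87263525-87263774, minus strand: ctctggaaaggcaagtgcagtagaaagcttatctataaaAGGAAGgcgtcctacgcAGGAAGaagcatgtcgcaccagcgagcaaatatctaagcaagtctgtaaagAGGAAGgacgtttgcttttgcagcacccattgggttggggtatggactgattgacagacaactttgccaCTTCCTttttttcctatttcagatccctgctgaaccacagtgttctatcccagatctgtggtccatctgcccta
Cd163, chr6:124304401-124304650, plus strand: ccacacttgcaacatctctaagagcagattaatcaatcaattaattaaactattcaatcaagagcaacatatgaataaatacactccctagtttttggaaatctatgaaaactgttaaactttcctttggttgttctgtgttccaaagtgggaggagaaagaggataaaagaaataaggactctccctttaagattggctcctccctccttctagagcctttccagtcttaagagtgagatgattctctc
The P2ry12 stretch held 1 match and the Fcrls stretch 4, of which 1 was on the reverse strand, with no overlaps. The Cd163 stretch held 0. Of all 32851 promoters of this length in the table, 29.5% held at least 1 match, so a match is common and is given as a description of the letters.

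Fcrls, an Fc receptor-like molecule that marks resident microglia, had normalized counts of 453 at the lowest, 596 at the median and 785 at the highest over the 12 saline control libraries, and 318, 400 and 468 over the 12 saline PLX libraries. In MIA mice the control libraries lay at 468, 553 and 737 and the PLX libraries at 331, 402 and 546. The PLX arms had nearly the same median, and 10 of 12 PLX libraries in saline and 9 of 12 in MIA lay below the lowest control. Fcrls fell by 0.51 (SE 0.07, adjusted p = 6.3e-05) on the log2 scale in saline and by 0.43 (SE 0.07, adjusted p = 0.0022) in MIA, both from limma. Its interaction was 0.08 (95% interval -0.13 to 0.29).

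P2ry12, the ADP receptor that steers microglial processes, had 855, 986 and 1281 in saline control against 600, 805 and 1008 in saline PLX. In MIA mice it had 881, 986 and 1190 in control against 747, 823 and 959 with PLX. The control medians of the prenatal groups were equal to 3 digits, and 8 of 12 PLX libraries in each group lay below the lowest control. P2ry12 fell by 0.31 (adjusted p = 0.0074, limma) in saline and by 0.24 (adjusted p = 0.046) in MIA, with an interaction of 0.07 (-0.10 to 0.25). With the covariate its adjusted p was 0.17 in saline and 0.16 in MIA.

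Cd163, the haemoglobin scavenger receptor of border-associated macrophages, had 33.8, 73.8 and 136 in saline control against 14.5, 24.7 and 73.2 in saline PLX. In MIA mice it had 20.5, 66.5 and 141 in control against 14.7, 25.1 and 44.9 with PLX. The arms overlapped in both prenatal groups. Cd163 fell by 1.37 (SE 0.22, adjusted p = 0.00055, limma) in saline and by 1.19 (SE 0.22, adjusted p = 0.0051) in MIA, with an interaction of 0.18 (-0.44 to 0.81). Cd209a, a C-type lectin of the same cells, had medians of 6.82 and 1.56 in saline and of 5.83 and 2.49 in MIA, control before PLX. A count of 10 was reached in 5 libraries, all of them saline controls, so Cd209a entered the test through the arm where it is high and a difference was bound to be seen. The differences were -1.68 and -1.33, with an interaction of 0.35 (-0.56 to 1.26), and at these low counts the interval allows more than a 2-fold difference. With the covariate the adjusted p was 0.046 in saline and 0.12 in MIA. The 15 tested border macrophage genes had a median inhibitor effect of -0.021 in saline and -0.035 in MIA. Cd163 and Cd209a therefore do not stand for that list.

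Myo18b, an unconventional myosin, had the smallest adjusted p of the lowered genes in both prenatal groups. It had 58.7, 81.0 and 94.4 in saline control against 39.0, 49.6 and 67.0 in saline PLX, and 62.5, 78.4 and 92.4 in MIA control against 36.0, 48.4 and 58.4 in MIA PLX. In MIA mice the ranges did not overlap, which held for 2 of the 19938 genes tested (0.01%); in saline mice 10 of 12 PLX libraries lay below the lowest control. Myo18b fell by 0.65 (SE 0.09, adjusted p = 5.1e-05, limma) and by 0.70 (SE 0.09, adjusted p = 7.0e-06), with an interaction of -0.06 (-0.31 to 0.19). Cwc27, a splicing-associated cyclophilin, was the 1 gene whose ranges did not overlap in saline (0.00502%). It fell by 0.36 there and by 0.24 in MIA (adjusted p = 0.0018 and 0.049 in limma), with an interaction of 0.13, and with the covariate neither passed.

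Upk1b, a tetraspanin first described in bladder epithelium, had medians of 43.2 and 21.1 in saline and of 29.2 and 18.6 in MIA, control before PLX. The MIA control arm started lower than the saline control arm, and the fall was 0.98 in saline and 0.71 in MIA. Its interaction was 0.27 (-0.12 to 0.66).

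Hcar2, the receptor for niacin and beta-hydroxybutyrate, was among the least expressed genes tested. Its counts were 0, 1.98 and 3.60 in saline control against 3.02, 9.19 and 17.6 in saline PLX, and 0, 0.466 and 2.92 in MIA control against 2.003, 4.81 and 12.8 in MIA PLX. The PLX libraries lay above the highest control in 10 of 12 cases in saline and 9 of 12 in MIA. Of the 9 libraries with a count of 10 or more, 5 were saline PLX and 4 MIA PLX, and no control reached it, so the gene passed the filter through the arms where it is high and its calls are no independent support. The differences were 1.84 and 1.91 on the log2(value + 1) scale (adjusted p = 0.0012 and 0.0011, limma), with an interaction of 0.07 (-0.81 to 0.94). The sexes had estimates of opposite sign, 0.88 in females and -0.75 in males, and the difference between them had an unadjusted p of 0.067. Male saline PLX libraries ran from 8.91 to 17.6, and male MIA PLX libraries from 2.003 to 12.8.

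Ly9, a SLAM-family receptor of lymphoid and myeloid cells, had 3.19, 5.90 and 10.5 in saline control against 9.64, 14.9 and 23.9 in saline PLX, and 1.94, 4.54 and 22.9 in MIA control against 10.2, 16.3 and 22.2 in MIA PLX. In MIA mice 11 of 12 controls lay below the lowest PLX library, and 1 female control lay above the highest. A count of 10 was reached in 2 control and 23 PLX libraries, so Ly9 passed the filter through the PLX arms. Its calls are therefore no independent support. Ly9 rose by 1.16 (adjusted p = 0.0074) and by 1.45 (adjusted p = 0.00057, limma), with an interaction of 0.29 (-0.34 to 0.92).

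**Figure D2:**
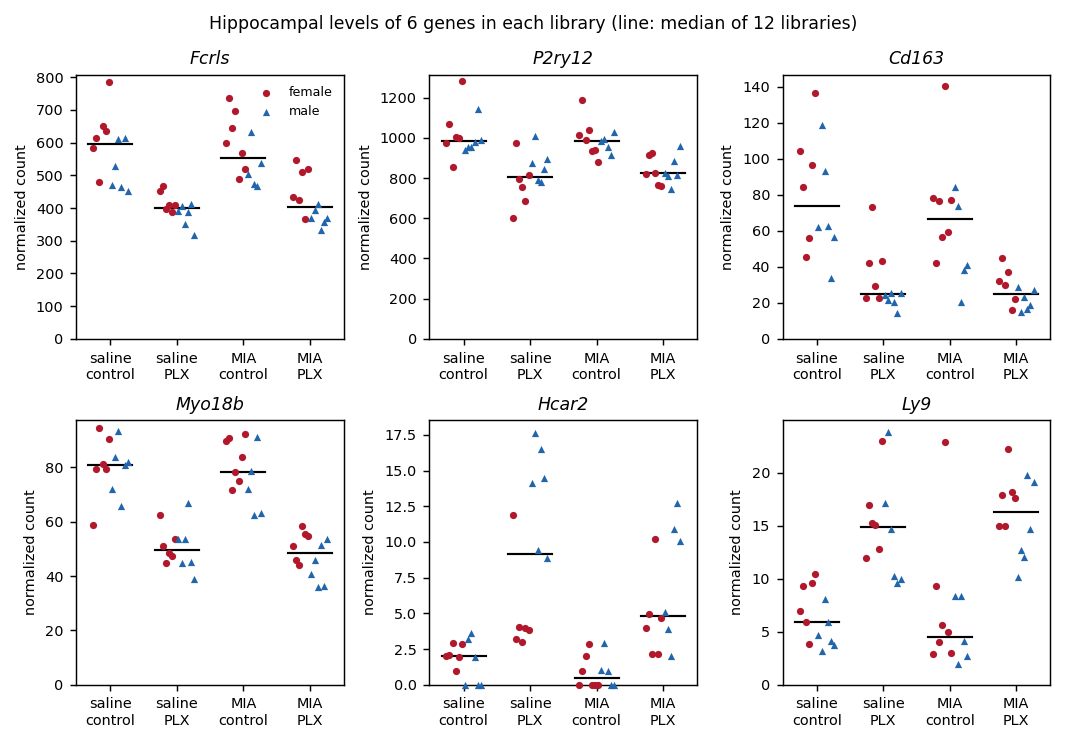
Normalized count (vertical axis, from 0) of Fcrls, P2ry12, Cd163, Myo18b, Hcar2 and Ly9 in each of the 48 hippocampal libraries, in columns for the 4 arms of 12, with red circles for females, blue triangles for males and a line at the median. In each panel the saline and MIA columns move the same way with PLX; Fcrls medians go from 596 to 400 in saline and from 553 to 402 in MIA.

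Other genes among the smallest adjusted p-values of the inhibitor effect passed in both prenatal groups or in saline alone. Per3, a clock gene, rose by 0.35 in saline (adjusted p = 0.025) and by 0.59 in MIA (adjusted p = 0.0051, limma), and Denn2b, a Rab exchange factor gene, rose by 0.30 and 0.35. Crybb1, a crystallin that immature microglia express, fell by 0.42 in saline (adjusted p = 0.026) and by 0.71 in MIA (adjusted p = 0.0051). Its medians were 82.3 and 59.0 in saline and 72.8 and 41.6 in MIA, control before PLX, and 3 and 10 of the 12 PLX libraries lay below the lowest control. Mdfi, an inhibitor of myogenic factors, fell by 0.74 and 1.25. It reached a count of 10 in 9 control and 2 PLX libraries, so it passed the filter through the control arms, where it is high. The calls of Mdfi are therefore no independent support. Per3, Denn2b, Crybb1 and Mdfi kept the MIA call with the covariate and not the saline call. Their interactions of 0.24, 0.06, -0.30 and -0.50 had unadjusted limma p-values of 0.12, 0.55, 0.12 and 0.13. Kdm2b, Adamts17 and Cachd1, a histone demethylase, a protease and a calcium channel-related gene, rose in saline by 0.35, 0.64 and 0.26 (adjusted p = 0.0087, 0.0088 and 0.0089, limma). In MIA they had 0.20, 0.46 and 0.13 and were not called, and with the covariate the saline calls were lost as well (adjusted p = 0.28, 0.27 and 0.25).

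The receptor that the drug targets and its ligands came next in the panel. Csf1r had a median of 2504 in saline control, 2341 in saline PLX, 2477 in MIA control and 2329 in MIA PLX, with overlapping ranges. It fell by 0.13 in saline (adjusted p = 0.041, limma), and the MIA difference was -0.09 (adjusted p = 0.21). The interaction was 0.05 (-0.09 to 0.18), so an inhibitor effect on Csf1r that differs by 1.5-fold between prenatal groups lies outside the interval. The call in saline was lost with the covariate for the 14 libraries (adjusted p = 0.60). The ligand genes Csf1 and Il34 had interactions of 0.01 (-0.14 to 0.16) and -0.02 (-0.18 to 0.15) and were not called in either prenatal group.

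The other microglial genes of the panel had interactions near 0. Cx3cr1, the receptor for neuronal fractalkine, fell by 0.24 in saline (adjusted p = 0.018, limma) and had a difference of -0.19 in MIA (adjusted p = 0.075), with an interaction of 0.05 (-0.12 to 0.23). Siglech, a sialic acid-binding lectin, fell by 0.33 in saline (adjusted p = 0.010) and had -0.20 in MIA (adjusted p = 0.075), with an interaction of 0.13 (-0.06 to 0.32). Gpr34, a lysophosphatidylserine receptor, had the smallest interaction p of the resting microglia list, at 0.22 (-0.02 to 0.47, unadjusted p = 0.073). Its medians were 372 and 269 in saline and 353 and 304 in MIA, control before PLX; it fell by 0.43 in saline (adjusted p = 0.0088, limma) and had -0.21 in MIA (adjusted p = 0.12). Tmem119 and Trem2, which encode a microglial membrane protein and a lipid-sensing receptor, were called in neither group and had interactions of 0.06 and 0.10. The saline calls of Cx3cr1, Siglech and Gpr34 were lost with the covariate (adjusted p = 0.35, 0.35 and 0.25). Without the 14 libraries the interactions of Csf1r and Tmem119 were -0.02 and -0.02.

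Among genes of microglial activation, Itgax, the CD11c integrin chain, had the largest interaction of the panel, at 0.62 (SE 0.27, 95% interval 0.08 to 1.16, unadjusted p = 0.026, adjusted p = 1.0 in limma). Its counts were 3.78, 7.53 and 12.4 in saline control against 4.82, 10.7 and 19.7 in saline PLX, and 1.87, 5.40 and 9.37 in MIA control against 5.87, 12.9 and 15.98 in MIA PLX. The PLX medians were close, while the MIA control median was below that of saline controls, with a prenatal difference of -0.58 without inhibitor (unadjusted p = 0.0037, not called) and 0.04 with it. A count of 10 was reached in 2 control and 15 PLX libraries, so Itgax passed the filter through the PLX arms. It rose in MIA by 1.10 (adjusted p = 0.0027, limma) and had 0.48 in saline (adjusted p = 0.064). Without the 14 libraries the interaction was 0.35 (unadjusted p = 0.32). Clec7a, the beta-glucan receptor dectin-1, had an interaction of 0.69 (SE 0.37, unadjusted p = 0.065) and rose in MIA by 1.19 (adjusted p = 0.027), with 0.50 in saline. With the covariate the MIA call of Itgax held (adjusted p = 0.012) and that of Clec7a did not (0.086). Cd52, a surface glycopeptide of leukocytes, rose by 0.54 and by 0.74 (adjusted p = 0.049 and 0.050, limma), with an interaction of 0.20, and with the covariate the saline call was lost (adjusted p = 0.25). Derl3, a component of protein degradation at the endoplasmic reticulum, rose in saline by 0.81 (adjusted p = 0.014, and 0.12 with the covariate) and had 0.36 in MIA, with an interaction of -0.46 (-0.96 to 0.05).

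Over the panel of 19 genes, the inhibitor effect had the same sign in both prenatal groups for 19, and 14 were called in saline (19.6% of all genes) and 10 in MIA (1.25%). With the covariate 7 were called in saline and 8 in MIA. The panel was chosen with earlier results of these data known. Its members Cd209a, Hcar2, Ly9 and Itgax passed the filter through the arms where they are high, so these counts are a description. The interaction was above 0 for 16 of 19, against 51.5% of all genes. Of these 16, 11 had a negative inhibitor difference in saline, so the MIA difference was the less negative one. For 8 of the 19 the interaction had the same sign in females and males, and for the rest the sexes differed in sign. The averaged interaction had an unadjusted p under 0.05 for 1, Itgax. The 95% interval lay within a 1.5-fold difference for 11 of 19 and within 1 log2 unit for 17. The genes outside were of low abundance, the widest interval being that of Cd209a.

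**Figure D3:**
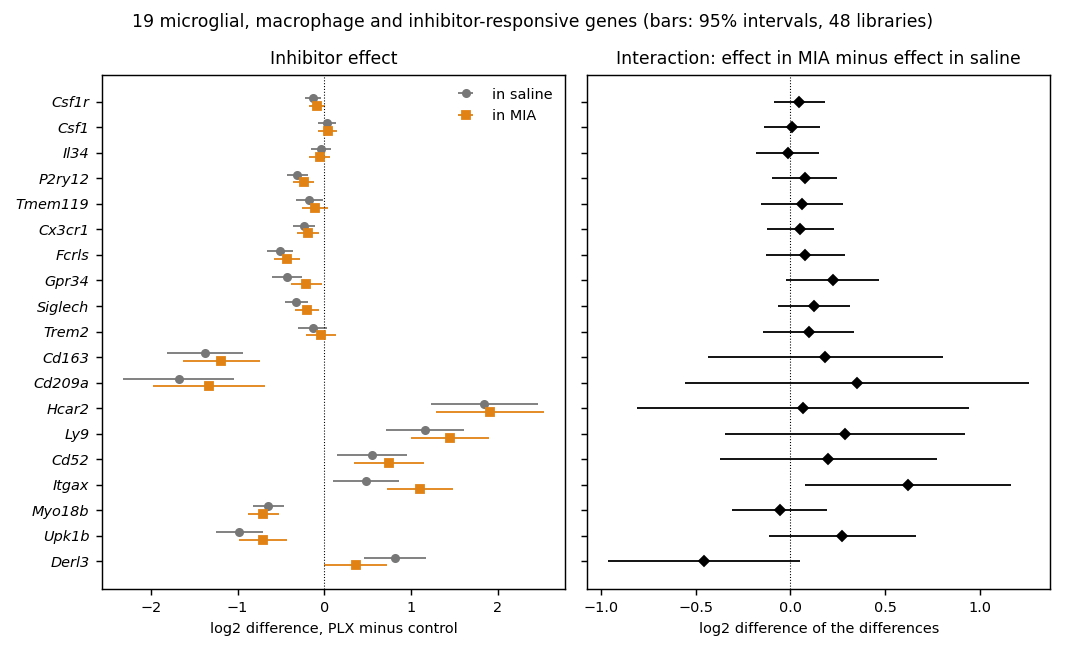
The 19 panel genes (rows) with the inhibitor effect as a log2 difference of PLX minus control in saline (grey circles) and MIA (orange squares) on the left, and the interaction, MIA effect minus saline effect, on the right; bars are 95% intervals from the fit of 48 libraries. On the right, the interval of Itgax does not include 0 and runs from 0.08 to 1.16.

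Genes with the smallest interaction p-values, 9 in each direction, are given although none was called; 8 of the 20 smallest p-values over all genes belonged to predicted genes, which are not named. In the 18 genes the inhibitor differences had opposite signs in saline and MIA, except for Tmem82, and the genes were selected on this contrast. The mean normalized count was under 20 in 6 of the 9 higher and 4 of the 9 lower genes. None of the 18 had arms that did not overlap.

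Pdf, a mitochondrial peptide deformylase, had the smallest p of the named genes (unadjusted p = 0.00040). Its counts were 15.3, 21.8 and 24.6 in saline control against 7.80, 16.5 and 22.1 in saline PLX, and 12.05, 16.3 and 26.1 in MIA control against 13.7, 21.1 and 24.6 in MIA PLX. The saline PLX and MIA control arms were low and the other 2 high. Pdf fell by 0.46 in saline (adjusted p = 0.021, limma) and had 0.25 in MIA, with an interaction of 0.72 (SE 0.19, interval 0.34 to 1.10); in prefrontal cortex the interaction was 0.20 (unadjusted p = 0.37).

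Tmem82, a transmembrane protein gene, was low in 1 arm. Its medians were 10.5 in saline control, 11.2 in saline PLX, 6.04 in MIA control and 12.9 in MIA PLX, and 7 of 12 MIA PLX libraries lay above the highest MIA control. It rose in MIA by 0.95 (adjusted p = 0.024, limma) with 0.07 in saline, and the interaction was 0.88 (SE 0.29, unadjusted p = 0.0034). Without the 14 libraries the interaction was 0.63 (unadjusted p = 0.11), and in prefrontal cortex it was -0.02.

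Cybc1, a chaperone of the phagocyte NADPH oxidase, had the tightest estimate of the 9 higher genes, at 0.21 (SE 0.07, unadjusted p = 0.0041). Its medians were 566 and 497 in saline and 504 and 532 in MIA, control before PLX, and it fell by 0.16 in saline (adjusted p = 0.025, limma). Acot3, an acyl-CoA thioesterase, had medians of 105 and 96.5 in saline and of 94.5 and 105 in MIA, with an interaction of 0.35 (SE 0.11). Trim15, a tripartite-motif protein gene, fell in saline by 0.68 (adjusted p = 0.019, limma) and had 0.10 in MIA. The saline calls of Pdf, Cybc1 and Trim15 and the MIA call of Tmem82 were not made with the covariate. Myzap, Srms and Mthfs were not called in either group and had interactions of 0.82, 0.85 and 0.46. Snord72, a small nucleolar RNA whose reads cannot be separated from those of a host transcript here, had 0.92. Srms reached the filter's count in 11 libraries, 4 saline control, 4 MIA PLX and 3 saline PLX. Height in the saline control and MIA PLX arms makes an interaction positive. Srms passed the filter through those arms, so its rank is no independent support.

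Of the 9 lower genes, Hoga1, a mitochondrial aldolase of hydroxyproline breakdown, had medians of 27.8 and 33.8 in saline and of 32.7 and 29.6 in MIA and an interaction of -0.61 (SE 0.19, unadjusted p = 0.0031). Its counts ran from 19.9 to 39.1 in saline control, 25.6 to 46.8 in saline PLX, 23.4 to 44.2 in MIA control and 15.6 to 44.9 in MIA PLX, so that the arms overlapped widely. Pir, which encodes the nuclear protein pirin, fell in MIA by 0.34 (adjusted p = 0.050, limma, and 0.23 with the covariate) with 0.03 in saline. Epb41l4a had an interaction of -0.27, and Dmgdh and Ildr1 had -0.70 and -0.95. Ibsp, a sialoprotein of bone matrix, had -1.18, with 1 MIA control library at 45.6 against a median of 8.23 for its arm. H4c9, Tpt1 and Atp5c1-ps, at -0.64, -0.38 and -0.74, have near-identical copies or are such a copy, so their counts are uncertain. Ibsp reached the filter's count in 12 libraries, 5 saline PLX, 5 MIA control and 2 MIA PLX. Ildr1 reached it in 9, of which 5 were MIA control, 2 saline PLX and 2 saline control. Height in the saline PLX and MIA control arms makes an interaction negative. Ibsp and Ildr1 passed the filter through those arms, so their ranks are no independent support.

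**Figure D4:**
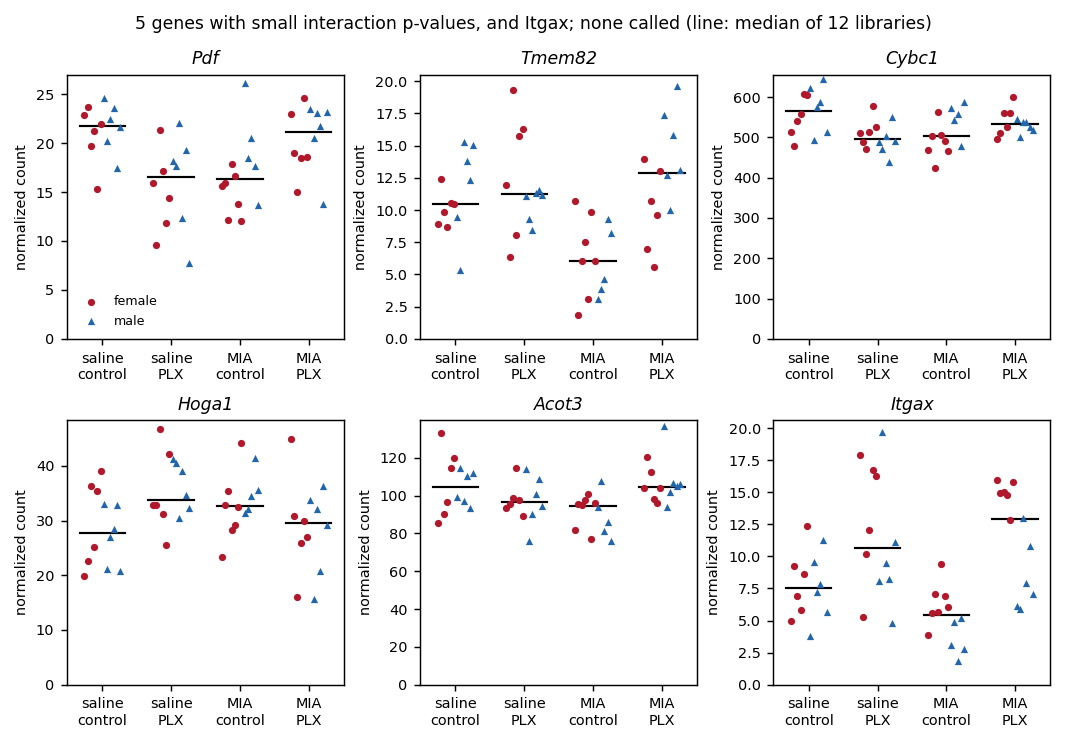
Normalized count (vertical axis, from 0) in each of the 48 libraries for Pdf, Tmem82, Cybc1, Hoga1 and Acot3, 5 of the 18 genes given with the smallest interaction p-values, and for Itgax, in columns for the 4 arms with a line at the median (red circles females, blue triangles males). In Pdf and Cybc1 the saline columns fall with PLX and the MIA columns do not; in each panel the arms overlap.

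The same contrast can be read as the prenatal effect with and without inhibitor. MIA against saline called 0 genes without inhibitor (0%; 847 at an unadjusted p under 0.05, 4.25%, with 1.66% higher and 2.59% lower; edgeR 0, DESeq2 5) and 0 genes with inhibitor (0%; 471, 2.36%; edgeR and DESeq2 0), all at an adjusted p under 0.05 in limma unless another tool is named. Tmem82 had the smallest of these p-values among the genes named above, with -0.82 without inhibitor (unadjusted p = 0.00019, adjusted p = 0.48) and 0.06 with it. For Pdf the prenatal difference was -0.32 without inhibitor and 0.40 with it.

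The interaction did not differ by sex for any gene at the threshold. Females minus males called 0 genes (0%), with 517 at an unadjusted p under 0.05 (2.59%; 1.21% higher and 1.38% lower in females). Neither edgeR nor DESeq2 called a gene. The smallest p-values belonged to Mms22l, a protein of replication fork repair, at -1.13 (SE 0.25, unadjusted p = 5.6e-05, adjusted p = 0.94), with an interaction of -0.43 in females and 0.70 in males. Its male medians were 30.9 in saline control, 29.8 in saline PLX, 25.3 in MIA control and 37.2 in MIA PLX, and its female medians were 30.2, 36.4, 33.4 and 28.9 in the same order. Ky, a protein of muscle maintenance, had -0.54 and 0.59 in females and males. In the other direction Nr1h3, the oxysterol receptor LXR-alpha, had 0.40 and -0.39, and Entpd4b, a nucleotidase gene with a close paralogue, had 1.00 and -0.61. The interactions nearest to the threshold within females were those of Klhdc1 (-0.29), Nat1 (-0.63), Armc6 (0.41) and Pdf (0.86), and within males those of Dmgdh (-1.43), H4c9 (-1.06), Mms22l (0.70) and Snord72 (1.68).

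Prefrontal cortex gave the same count. Its interaction called 0 of 19841 genes (0%), with 988 at an unadjusted p under 0.05 (4.98%). The difference between tissues called 0 of 20620 (0%), with 496 at an unadjusted p under 0.05 (2.41%), and no gene was called by edgeR or DESeq2. Of these 18 genes, 16 were also tested in cortex, and 4 of the 9 higher and 5 of the 7 lower ones had the same direction there. Myzap had an interaction of 0.47 in cortex, with an unadjusted p under 0.05 in limma. Among the smallest p-values for the tissue difference were those of Nol3, an apoptosis repressor, with -0.22 in hippocampus and 0.27 in cortex, Fam185a with -0.15 and 0.12, and Olfr287 with 0.30 and -0.29.

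Gene lists place these values in the pathways and cell types of the tissue. In each of the 41 lists 0 genes were called for the interaction. Resting microglia had 45 of 45 genes tested, with a median interaction of 0.06 against 0.0034 over all genes, 35 of 45 above 0 and 0 at an unadjusted p under 0.05. In saline 13 of the 45 fell with PLX (9.75% of all genes fell) and 1 rose (9.83% of all genes rose), and in MIA 5 fell (0.366%) and 0 rose (0.888%). The median was 0.18 in females and -0.06 in males. The interval lay within a 1.5-fold difference for 41 of the 45. The second-smallest interaction p of the list was that of Sparc, a matrix glycoprotein, at 0.13. The summed level of the list ran from 30077 to 42584 in saline control, 29719 to 33664 in saline PLX, 29169 to 34990 in MIA control and 29093 to 34983 in MIA PLX.

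Activated microglia had 30 tested genes, a median of 0.06, and 1, Itgax, at an unadjusted p under 0.05. The 17 tested genes of CSF1R ligands and signalling had a median of 0.02, and the smallest p was that of Ptpn6, a phosphatase that limits cytokine receptor signalling, at 0.29 (0.50 in females and 0.09 in males). Complement had 24 tested genes, a median of 0.09 and 2 higher at an unadjusted p under 0.05, where 1.24% of all genes were. These were Itgax, also counted above, and the C5a receptor gene C5ar1, at 0.41 (SE 0.19, unadjusted p = 0.034). C4b, a classical-pathway component, rose in MIA by 0.62 (adjusted p = 0.015, limma) and had 0.31 in saline, with an interaction of 0.31. Its counts ran from 685 to 2417.5 in MIA control and from 1148 to 1739 in MIA PLX. Of the 12 MIA controls, 10 lay below the lowest PLX library and 1, female 5, lay above the highest. Toll-like receptors and adaptors had a median of 0.03 over 22 genes and 1 at an unadjusted p under 0.05, Ly96, the TLR4 co-receptor MD-2, at 0.43. It fell in saline by 0.36 (adjusted p = 0.049, limma, and 0.63 with the covariate) and had 0.07 in MIA. The 33 interferon-stimulated genes had a median of -0.02, the 21 cytokine receptors linked to maternal immune activation -0.04, the 15 cytokines and chemokines 0.01 and the 19 MHC genes 0.05, each with 0 genes at an unadjusted p under 0.05.

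Border macrophages had 15 of the 18 genes in the table tested, a median of 0.18 and 10 above 0. Ccr1, a chemokine receptor, had 1.31 (SE 0.50, unadjusted p = 0.012), the highest estimate among the genes that passed the filter (1.77 without the 14 libraries), from medians of 6.56 and 3.15 in saline and of 4.10 and 6.03 in MIA. Ccr1 reached a count of 10 in 5 libraries, 4 saline controls and 1 MIA PLX, which are the 2 arms whose height makes the interaction positive, so both its place among the tested genes and its rank rest on those arms. The summed level of the list ran from 1111 to 2171 in saline control, 1262 to 2024 in saline PLX, 1189 to 2200 in MIA control and 1222 to 1788 in MIA PLX. Pf4, Ms4a7, Folr2, Ccr2 and 5 others of its markers had a mean under 10. In saline 4 of the list's 15 tested genes fell with PLX (9.75% of all genes) and 1 rose (9.83%). In MIA 2 fell (0.366%) and 0 rose (0.888%). Blood leukocytes had 6 of 28 genes tested, with a median of 0.07. Red blood cells had 6 tested genes with a median of 0.18, 1.02 in females and -0.63 in males, and a median 95% half-width of 1.99, so these values bound little.

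Choroid plexus genes pointed one way without passing the test. All 18 tested had an interaction below 0, from -0.80 to -0.08, with a median of -0.43 (-1.01 in females and -0.09 in males), 0 of 18 at an unadjusted p under 0.05 and a median half-width of 2.09. The summed level of the list ran from 5830 to 145340 in saline control, 4762 to 153540 in saline PLX, 4516 to 126790 in MIA control and 4996 to 53562 in MIA PLX, with Ttr, the transthyretin gene, as its most abundant member. The range within each arm was more than 10-fold, and its part in other interactions was not tested. Pericytes and meningeal fibroblasts had a median of 0.17 over 21 genes, led by Ptgds, a prostaglandin synthase of the meninges, at 0.66 (SE 0.36).

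Lists of neuronal activity and identity had median interactions near that of all genes, with a wide range in some. The 33 immediate early genes had a median of -0.04, -0.30 in females and 0.14 in males, and ran from -0.55 to 0.32, with 15 above 0 and 19 of 33 intervals within a 1.5-fold difference. The 26 genes of synaptic adhesion and scaffolds had -0.06, and the 16 NMDA and AMPA receptor subunits had -0.05. Of the 26, 10 rose with PLX in saline (9.83% of all genes) and 0 in MIA (0.888%), with median inhibitor effects of 0.15 and 0.08. Each gene of these 2 lists had an interval within a 1.5-fold difference. Inhibitory interneurons had a median of -0.02 over 20 genes, with 8 of 20 above 0. In this list 2 were lower at an unadjusted p under 0.05, where 0.797% of all genes were. These encode homeodomain factors of the medial ganglionic eminence lineage, Nkx2-1 at -0.72 (SE 0.29, unadjusted p = 0.016) and Lhx6 at -0.14 (SE 0.07, unadjusted p = 0.043). Nkx2-1 was of low abundance, with medians of 8.54 and 11.5 in saline and of 9.75 and 8.36 in MIA, control before PLX. Of its 21 libraries with a count of 10 or more, 10 were saline PLX and 6 MIA control, whose height makes the interaction negative. The 10 CA1, 12 CA2/CA3 and 12 dentate granule genes had medians of 0.01, 0.02 and -0.04, and the 17 genes of adult neurogenesis -0.08, with 11 of 17 intervals within a 1.5-fold difference. Of the 12 dentate granule genes 6 rose with PLX in saline (9.83% of all genes) and 0 in MIA (0.888%), while the list's median inhibitor effects were 0.27 and 0.20. Over all genes the saline calls went from 3902 to 8 with the covariate for the 14 libraries, so these counts are no measure of a difference between the prenatal groups.

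In other glia and stress pathways, oligodendrocyte precursors had a median of -0.03 over 14 genes, with Olig2, their lineage factor, at -0.23 (unadjusted p = 0.043). Mature myelin genes had 0.03 and astrocytes 0.04. Cytosolic heat shock had -0.05 with 4 of 20 above 0 and Bag3, a co-chaperone, at -0.25 (SE 0.10, unadjusted p = 0.016). Endoplasmic reticulum stress had -0.04 with 6 of 28 above 0, and cholesterol synthesis -0.07 over 25 genes. Glucocorticoid-responsive genes had 0.02, -0.16 in females and 0.25 in males, with Cdkn1a, a cell cycle inhibitor, at -0.52 (unadjusted p = 0.048); in prefrontal cortex it had -0.64 (unadjusted p = 0.0032). Clock genes had 0.06 over 22 genes, and 3 of them rose with PLX in MIA, Per2, Per3 and Tef (0.888% of all genes rose). In saline 2 rose, Clock and Per3 (9.83%), and 1 fell, Bhlhe40 (9.75%). Cell cycle genes had -0.04 with Cdk1, the mitotic kinase, at -0.81 (unadjusted p = 0.026). Cdk1 was of low abundance, with medians of 7.21 and 8.19 in saline and of 10.5 and 6.52 in MIA, control before PLX. Activity-induced effectors had -0.06 with Spry2, an inhibitor of receptor tyrosine kinase signalling, at 0.17. The 30 tested genes known for the inhibitor effect from earlier results had 0.08, which is not independent of the values above.

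The 79 ribosomal protein and 76 oxidative phosphorylation genes, which define the 14 libraries, had interactions of 0.04 and 0.02 at the median. Of these Rps10 (0.29) and Rpl24 (0.43) had an unadjusted p under 0.05, and ribosomal protein genes have many near-identical pseudogenes. In the 2 lists 32 and 53 genes fell with PLX in saline (9.75% of all genes) and 1 and 2 in MIA (0.366%), while their median inhibitor effects were alike, -0.21 and -0.23 in saline and -0.19 and -0.22 in MIA. The 14 libraries were set apart by a high share of these genes, and 7 were saline controls and 5 MIA controls. The lower level with PLX is in part the same observation, so these counts are a description.

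**Figure D5:**
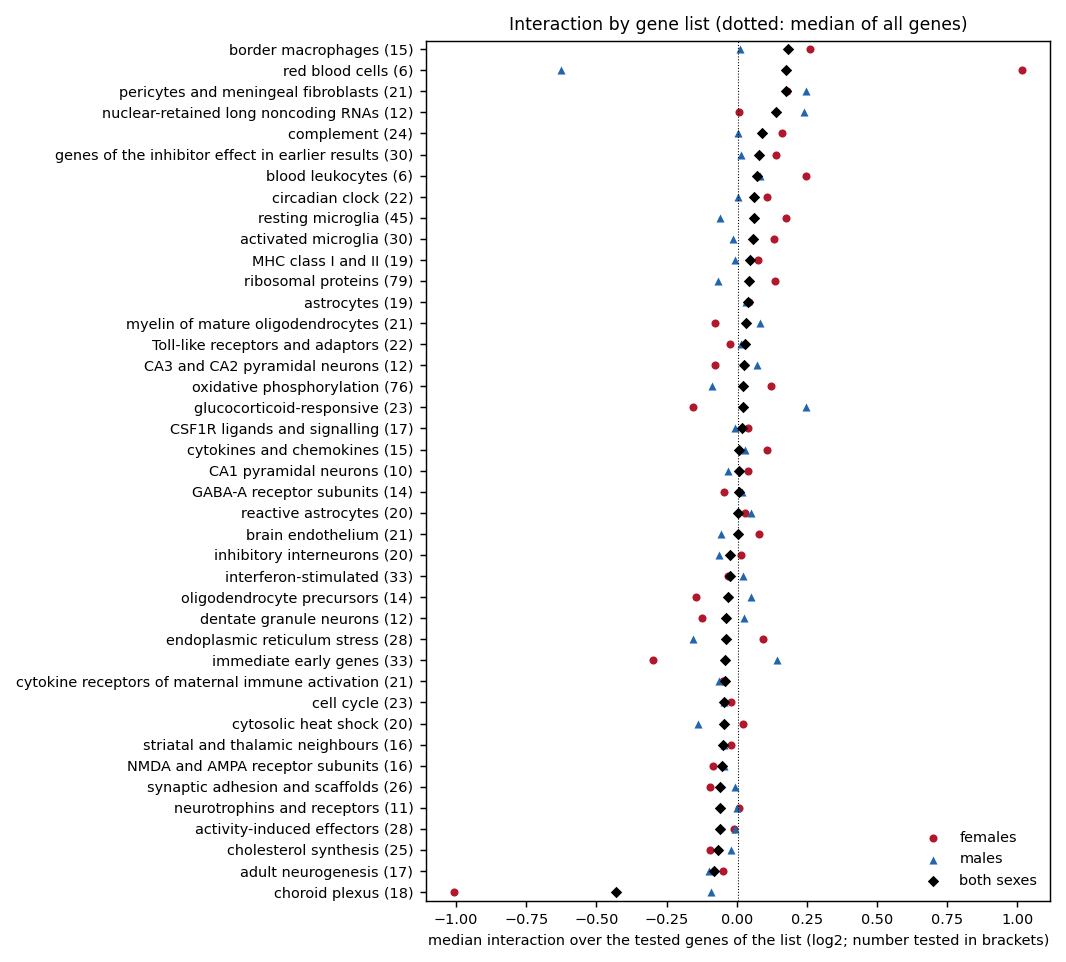
Median interaction (horizontal axis, log2) over the tested genes of each of the 41 lists (rows, number of tested genes in brackets) for both sexes (black diamonds), females (red circles) and males (blue triangles); the dotted line is the median of all genes. Of the 41 black diamonds 40 lie between -0.10 and 0.20, and choroid plexus lies at -0.43; red blood cells and choroid plexus have the widest spacing between the sexes.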

How the data were processed

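Messenger RNA libraries of mouse hippocampus (48) and prefrontal cortex (48) were prepared from total RNA with a stranded kit, per the labels. The submitters' processing notes name Trimmomatic and STAR 2.6.1d with GRCm39 (mm39); no source used here names the counting tool. The deposited values are a signal, gene counts that the authors divided by 1 factor per library: a single factor made all values of each of the 96 columns whole (tolerance 0.01), and the recovered reads served edgeR and DESeq2. Where that factor lay close to 1, the recovery could not be told from chance. Factors ran from 0.898 to 1.11 in hippocampus.

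Log2(value + 1) was fitted in limma 3.58.1 (R 4.3.3) in 1 model of 8 groups with a variance trend. Two-sided p-values were adjusted by Benjamini-Hochberg over all tested genes, and adjusted values under 0.05 counted as calls. The tissue difference used 1 model of 16 groups. The libraries that stand apart were split at the point of smallest within-set spread of the ribosomal and oxidative phosphorylation share.

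Named genes are a fixed panel, the 10 smallest interaction p-values per direction, 2 per direction for sex and tissue differences, up to 5 calls per direction for the inhibitor effects, and the 2 smallest per list described; predicted genes were counted and not named. Some genes that the rule names are not reported here, and counts over the panel and the smallest p-values leave them out. Members and lists (41 lists, 903 of 955 symbols in the table) were chosen with earlier results of these data known. Genes named outside this rule were chosen after their values were seen. Alternatives were another pseudocount (0.5), no filter, a replicate block, edgeR 4.0.16, DESeq2 1.42.0, a covariate for, or omission of, the libraries that stand apart, and each library left out in turn.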

Additional observations from a re-analysis of the deposited data

Results flagged for a closer look

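Library values were screened in each of the 8 groups for 37 genes, the panel and those with the smallest interaction p-values (296 sets of values). Other genes named above were not screened. In 18 (6.08%) the highest or lowest library lay further from its nearest neighbour than Dixon's 95% limit for the group's size, and chance flags about 1 in 20. Among microglial and macrophage genes these were P2ry12 in male saline control 5 (1141, nearest 990.9), Tmem119 in female MIA PLX 6 (648.2, nearest 543.4), Siglech in female saline PLX 4 (lowest, 278.2), Cd163 in female MIA control 5 (140.6, nearest 78.09) and Upk1b in male MIA control 3 (48.58, nearest 31.11). Ly9 was high in the same female MIA control 5 (22.9, nearest 9.362). Hcar2 was high in female MIA PLX 4 (10.19, nearest 4.985) and female saline PLX 1 (11.92, nearest 4.068), and Itgax was lowest in female MIA PLX 5 (12.82, nearest 14.82).

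Among the genes with the smallest interaction p-values, Pdf was lowest in male MIA PLX 5 (13.74) and Atp5c1-ps in female MIA control 4 (9.413). The high libraries were male MIA PLX 1 (136.8) and female saline PLX 4 (114.9) for Acot3, male saline control 4 for Snord72 (24.59), female saline PLX 1 for Tpt1 (412.4), female saline PLX 2 for Epb41l4a (203.5) and male saline PLX 4 for Dmgdh (24.73). Ibsp in male MIA control 5 stood furthest out, at 45.61 with its nearest neighbour at 11.19.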

How the results depend on the processing

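The interaction count was 0 under each alternative: pseudocount 0.5, no filter, the replicate block, edgeR, DESeq2, the covariate for the 14 libraries that stand apart, their omission, and each of 48 single omissions (355 to 562 genes at an unadjusted p under 0.05). The counts for females, males, the sex and tissue differences and the prenatal effect with inhibitor were also 0 in each. The prenatal effect without inhibitor went from 0 to 5 genes with DESeq2 and to at most 2 with a library left out, without male MIA control 5 or female saline control 2. The inhibitor effect in saline went from 3902 genes to 8 with the covariate and 0 without those libraries, 7 of them saline controls. In MIA it went from 250 to 137 with no filter, 30 with the replicate block, 15 with the covariate, 3 without the 14 libraries, 60 with edgeR and 1090 with DESeq2. With a library left out the saline count ran from 653 to 5753 and moved by over 1.5 times without 9 libraries (female saline control 4, 5 and 6, male saline control 1, 3 and 5, female saline PLX 3, male saline PLX 2 and 3). The MIA count ran from 14 to 3534 and moved so without 38 of 48; the 10 without which it did not were female MIA control 1 and 6, female MIA PLX 3, male MIA PLX 2, female saline control 1, 2, 3 and 6, female saline PLX 2 and male saline PLX 3.

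Single interactions were followed over the settings for the same 37 genes, the panel and those with the smallest interaction p-values. Of these 37 interactions, 8 changed sign in some setting and the smallest adjusted p in any was 0.842. Without the 14 libraries, Csf1r was -0.0224, Tmem119 -0.0225, Cd163 -0.0140, Ly9 -0.0621 and Cd52 -0.0567. Csf1 was -0.000176 with the replicate block, and with single libraries left out Csf1 ran from -0.0136 to 0.0311, Il34 from -0.0490 to 0.0174 and Hcar2 from -0.0564 to 0.214.

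The replicate numbers share only a number: same-numbered libraries had mean correlations of -0.123 to 0.0597 in their deviations, and 8 of 48 libraries correlated best with a library of their own number, a hint from the data and not the design. The replicate block gave 3245 genes for the inhibitor in saline, 30 in MIA and 0 for the interaction; for the tissue difference the animal label was the block (consensus correlation 0.376), again with 0. Genes under about 10 counts have wide intervals, as for Hcar2 and Cd209a.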
